A study of Mus musculus with 5 samples.

Results

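Inter-alpha-trypsin inhibitor heavy chains, hyaluronan synthases and the hyaluronan receptor Cd44 were examined in dorsal pancreatic buds of mouse embryos with and without Ptf1a. The genes were Itih1, Itih2, Itih3, Itih4, Itih5, Has1, Has2, Has3 and Cd44, and every probe set annotated to 1 of these symbols alone was taken. This gave 15 probe sets for 9 genes, of 45037 probe sets tested and 18193 named genes on the array. The genes were chosen by measured values of these arrays: the set was built around Itih5, which came close to the threshold when Ptf1a null and heterozygote buds were compared across all probe sets. Their null against heterozygote values are therefore a description. Where a p-value or a count of calls for them is printed, it is read from the fit to all probe sets and is no independent test.

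Hyaluronan is a long, unsulfated sugar polymer that the Has enzymes make at the plasma membrane and extrude into the space around cells, where it swells with water and gives embryonic matrix its volume. Inter-alpha-trypsin inhibitor heavy chains are secreted proteins, made in adults chiefly by the liver, which travel in plasma bound through a chondroitin sulfate chain to the small protease inhibitor bikunin. They can be transferred from it onto hyaluronan, and this crosslinks and stabilises the polymer. Cd44 is the main cell surface receptor for hyaluronan.

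All embryos were C57BL/6J mice at E10.5, from matings between Ptf1a heterozygotes. Ptf1a is a DNA-binding transcription factor without which the pancreas does not form normally. There were 2 heterozygote and 3 null mutant arrays, and the heterozygote controls carry the mutant allele too. The labels do not say how the allele was made. Each array was given RNA from 3 pooled buds, about 2000 to 3000 cells, whose surrounding mesenchyme had been dissected off mechanically, after 2 rounds of amplification primed from the poly(A) tail. Nothing says which litters the pools came from, so the spread measured is that between pools.

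Values are log2 signals after quantile normalisation. A background level, the 95th percentile of 27 bacterial control probe sets, lay between 3.03 and 3.29 on this scale, and 60.9% to 65.2% of probe sets exceeded it on each array. Ptf1a itself was 7.10 and 7.33 in heterozygotes and 5.21, 6.07 and 5.00 in nulls, lower in every null than in either heterozygote. Whether its probes lie in a part of the gene that the mutant allele changes is not given. The 11 measured markers of pancreatic epithelium were above background on all 5 arrays, with summed linear signals of 5996 to 9115 in heterozygotes and 7652 to 9719 in nulls. By their means 4 were higher and 7 lower in nulls, with a median log2 difference of -0.37, which was 0.038 without heterozygote replicate 2, -0.57 without heterozygote replicate 1 and -0.23 without null replicate 3. The brightest were the keratins Krt8 and Krt18 and the hormone gene Gcg, which made up most of the summed signal on every array. Their log2 differences were 0.44, 0.67 and 0.33. Groups were apart with nulls higher at 2 of the 11, Krt8 and Krt18. They were apart with nulls lower at 4, the transcription factor genes Mnx1 (-2.68), Nkx6-1 (-0.97), Prox1 (-0.70) and Pdx1 (-0.51). Over all probe sets 9.9% were apart with nulls higher and 10.1% with nulls lower. In bulk RNA from a bud, fewer cells of a type and less RNA per cell cannot be told apart.

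Of the 15 probe sets, 3 were above background on all 5 arrays, 1 each for Itih5, Itih2 and Cd44. Another 8 were above it on some arrays and 4 on none. The plot of signal by array shows each of them.

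**Figure D1:**
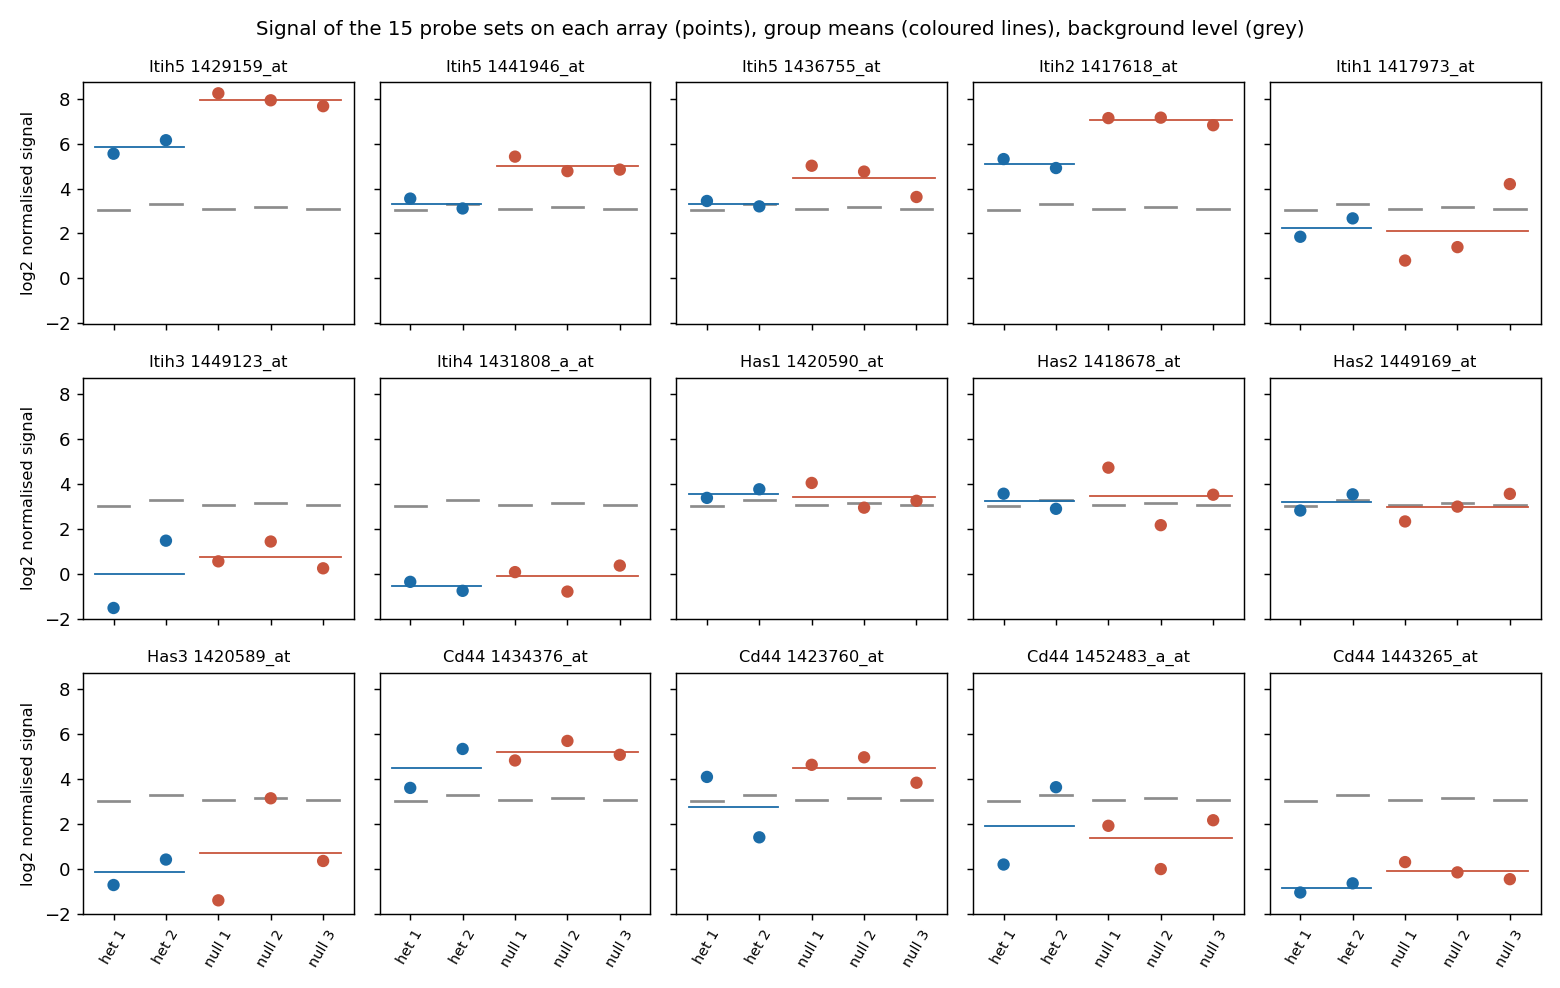
Each panel plots the log2 normalised signal (vertical axis) of 1 probe set on the 2 heterozygote arrays (blue, "het") and 3 null arrays (red), with group means as coloured lines and each array's background level as a grey bar. All 3 Itih5 panels and the Itih2 panel show nulls above both heterozygotes, while Itih3, Itih4 and Has3 lie below background on every array.

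Itih2 and Itih5 are next to each other on chromosome 2, with no other protein-coding gene between them in RefSeq's GRCm38.p6 table, and they are transcribed away from each other. These neighbours had the highest signals among the heavy chains and differed between the groups in the same direction. The 250 bases before the start of each are therefore shown, from RefSeq (GRCm38.p6). Such a window was available for 7 of the 9 genes. The Itih5 window is chr2:10153293-10153542 on the plus strand and the Itih2 window chr2:10130684-10130933 on the minus strand.
Itih5: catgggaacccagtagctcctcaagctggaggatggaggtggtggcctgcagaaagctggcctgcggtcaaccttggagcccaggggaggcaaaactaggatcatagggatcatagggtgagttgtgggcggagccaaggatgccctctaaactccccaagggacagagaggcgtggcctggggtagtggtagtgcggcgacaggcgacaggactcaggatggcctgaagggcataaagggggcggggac
Itih2: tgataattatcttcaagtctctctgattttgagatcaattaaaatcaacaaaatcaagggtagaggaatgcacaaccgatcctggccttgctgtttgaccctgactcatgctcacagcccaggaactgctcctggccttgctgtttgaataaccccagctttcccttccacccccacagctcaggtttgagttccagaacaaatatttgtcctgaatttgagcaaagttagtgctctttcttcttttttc
The windows were searched on both strands for the parts of the site that the Ptf1a complex is known to bind, the E-box CANNTG and the TC-box TGGGAAA; the E-box reads the same on both strands, and the motifs can share at most their end bases. Neither window held a match to either motif, so nothing is printed in capitals. An E-box occurs in 66.2% and a TC-box in 6.82% of the 32851 windows of the same length in the RefSeq table. The absence says only that these letters are not in these 250 bases. GC content was 61.2% for the Itih5 window and 43.2% for the Itih2 window.

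Itih5, a heavy chain that many tissues outside the liver express, had the largest difference of the 9 genes by its brightest probe set. At 1429159_at the heterozygote pools gave log2 signals of 5.55 and 6.15, and the null pools gave 8.24, 7.93 and 7.66, in replicate order as throughout. Every null array lay above both heterozygote arrays. In the deposited linear intensities these are 53.7 and 69.4 against 339, 184 and 208.

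Averaged over arrays, 1429159_at had 7.94 ± 0.29 in nulls (SD, n = 3) against 5.85 ± 0.43 in heterozygotes (SD, n = 2). The signal was 4.27-fold higher in nulls (log2 difference 2.09, SE 0.41). It is also the value that led to the choice of these genes: limma with a variance prior that follows signal level gave it an adjusted p of 0.0588 over all probe sets, short of the threshold of 0.05, and the untrended fit gave 0.441.

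The other Itih5 probe sets were dimmer and had the same direction. At 1441946_at the signal was 3.55 and 3.11 in heterozygotes and 5.42, 4.77 and 4.84 in nulls, with a log2 difference of 1.68 (SE 0.41). At 1436755_at it was 3.44 and 3.20 in heterozygotes and 5.01, 4.75 and 3.62 in nulls, with a log2 difference of 1.14 (SE 0.55). Groups did not overlap at either, but heterozygote replicate 2 was below background at both, so their heterozygote means rest on 1 measured array each.

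The Itih5 probe sets did not order the arrays alike within a genotype. Null replicate 1 was the highest array at each of them. Heterozygote replicate 1 was below replicate 2 at 1429159_at and above it at 1441946_at and 1436755_at. Across the 5 arrays the dimmer probe sets correlated with 1429159_at at Pearson r = 0.93 and 0.82, a description over arrays that share a genotype contrast.

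Itih2 encodes heavy chain 2, which with heavy chain 1 and bikunin forms inter-alpha-trypsin inhibitor itself. Its probe set 1417618_at read 5.31 and 4.91 in the heterozygote pools, and 7.13, 7.15 and 6.82 in the null pools. All 5 values were above background and the groups did not overlap. Null arrays averaged 7.03 ± 0.19 (SD, n = 3) against 5.11 ± 0.28 (SD, n = 2) for heterozygote arrays. This is a 3.79-fold difference (log2 difference 1.92, SE 0.37).

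Itih2 and Itih5 had a Pearson r of 0.95 over the 5 arrays. Within heterozygotes they ran opposite ways, since Itih2 was higher on replicate 1 and Itih5 on replicate 2. In nulls replicate 3 was the lowest array for both genes, while the top array was replicate 1 for Itih5 and replicate 2 for Itih2.

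The genes on either side of the pair were read from the same fit. On the Itih2 side, Kin, which encodes a nuclear DNA-binding protein, had a log2 difference of 0.055 (SE 0.54), Atp5c1, a subunit of the mitochondrial ATP synthase, -0.086 (SE 0.35) and Taf3, a subunit of the general transcription factor TFIID, -0.38 (SE 0.94). On the Itih5 side, Sfmbt2, a Polycomb protein, had -0.53 (SE 0.99), Prkcq, a protein kinase C, 0.018 (SE 1.57) and Pfkfb3, a regulator of glycolysis, -0.23 (SE 0.37), each by its brightest probe set. Groups overlapped at all 6, and limma's adjusted p over all probe sets was 0.999 or more for each. The second probe sets of Atp5c1 and Sfmbt2 had the opposite sign, at 0.25 (SE 0.52) and 0.37 (SE 1.65). These 6 genes were picked by position after the signals of the pair were known. Atp5c1, Kin and Pfkfb3 were above background on all 5 arrays, whereas Taf3, Sfmbt2 and Prkcq were not and their differences have wide errors.

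**Figure D2:**
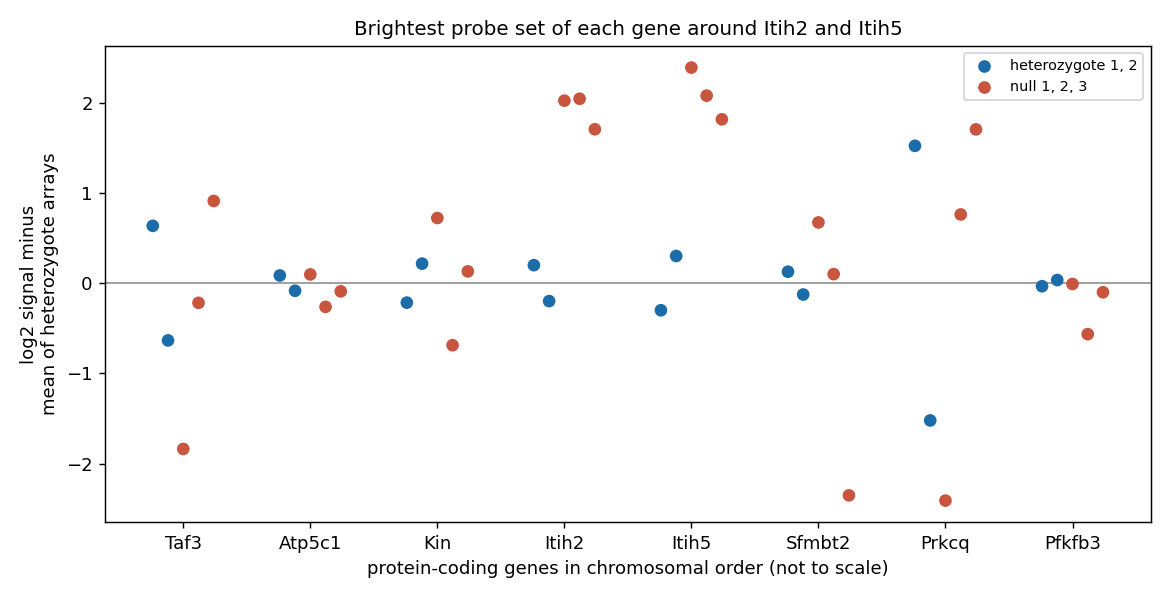
Log2 signal of the brightest probe set of each of 8 neighbouring protein-coding genes, minus the mean of the 2 heterozygote arrays (vertical axis), for heterozygotes (blue) and nulls (red), with genes in chromosomal order and not to scale. Nulls stand clear of heterozygotes at Itih2 and Itih5, and the groups overlap at the other 6 genes.

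The remaining heavy chain genes, Itih1, Itih3 and Itih4, lie side by side on chromosome 14 and were below background on every array but 1. Itih3 encodes the heavy chain of pre-alpha-inhibitor, and its probe set 1449123_at was -1.52 and 1.47 in heterozygotes and 0.55, 1.43 and 0.24 in nulls. Itih4, which is not coupled to bikunin, gave -0.36 and -0.76 in heterozygotes and 0.07, -0.79 and 0.36 in nulls. Neither exceeded background on any array, so no fold is given.

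Itih1, the partner of Itih2 in inter-alpha-trypsin inhibitor, had 1 array above background. Its probe set 1417973_at was 1.85 and 2.67 in heterozygotes and 0.79, 1.39 and 4.20 in nulls. The value on null replicate 3 stood apart from the other 4, and without that array the log2 difference moved from -0.13 to -1.17. Among the heavy chain genes, signal above background came from the chromosome 2 pair, apart from this 1 array.

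The partners of the heavy chains were Ambp, Tnfaip6 and Ptx3. Ambp, which encodes the precursor of bikunin and of alpha-1-microglobulin, was above background on every array, at 9.97 and 10.17 in heterozygotes and 10.39, 10.17 and 10.36 in nulls. Its groups overlapped, with a log2 difference of 0.23 (SE 0.34, limma adjusted p = 0.999). Tnfaip6, the enzyme that transfers heavy chains to hyaluronan, exceeded background on 0 of 5 arrays, and Ptx3, a pentraxin that binds heavy chains in the matrix, on 3.

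The hyaluronan synthase genes were near or below background in both genotypes. Has2, the synthase needed for heart and mesenchyme formation in the embryo, gave 3.56 and 2.89 in heterozygotes and 4.72, 2.16 and 3.52 in nulls at 1418678_at. At its second probe set, 1449169_at, it gave 2.81 and 3.53 against 2.33, 2.99 and 3.56. The probe sets had log2 differences of 0.24 (SE 0.84) and -0.22 (SE 0.53), and groups overlapped at both.

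Has1 at 1420590_at was 3.38 and 3.76 in heterozygotes and 4.04, 2.94 and 3.25 in nulls, with a log2 difference of -0.16 (SE 0.48). It exceeded background on 4 of 5 arrays. Has3 at 1420589_at exceeded it on none, at -0.71 and 0.43 in heterozygotes and -1.39, 3.15 and 0.36 in nulls, where null replicate 2 was far above the others and close to its background level of 3.17. A difference between genotypes in synthase signal was not detectable at these levels.

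The 4 probe sets of Cd44 disagreed. The brightest, 1434376_at, was above background on all arrays, at 3.61 and 5.35 in heterozygotes and 4.84, 5.71 and 5.09 in nulls, with a log2 difference of 0.73 (SE 0.66). At 1423760_at the values were 4.10 and 1.41 in heterozygotes and 4.64, 4.98 and 3.84 in nulls, with a log2 difference of 1.73 (SE 0.91). The groups overlapped at both.

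Heterozygote replicates 1 and 2 stood in opposite order at these Cd44 probe sets, and each difference moved with the heterozygote array left out. Without heterozygote replicate 1 they were -0.14 at 1434376_at and 3.06 at 1423760_at, and without heterozygote replicate 2 they were 1.58 and 0.38. Of the remaining pair, 1452483_a_at was above background only on heterozygote replicate 2 (3.65) and had a log2 difference of -0.56 (SE 1.26). The other, 1443265_at, was between -1.04 and 0.31 on all arrays, below background throughout, although every null lay above both heterozygotes.

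Counted together, 11 of the 15 probe sets had a higher mean in nulls and 4 a lower one, with a median log2 difference of 0.74. Over all probe sets 49.3% had a higher mean in nulls and the median was -0.0099. Every null array exceeded both heterozygote arrays at 5 of the 15, the 3 of Itih5, that of Itih2 and the dim 1443265_at of Cd44, against 9.9% of all probe sets. The reverse occurred at 0 of the 15, against 10.1%. Among the 20815 probe sets above background on all 5 arrays, 9.63% had every null above both heterozygotes and 1.36% also had a mean at least 1 log2 unit higher. Of the 3 probe sets of these genes in that class, those of Itih5 and Itih2 met both conditions. With limma at an adjusted p of 0.05 over all probe sets, the untrended fit called 0 of the 15 and 0.0% of all probe sets. The trended fit called 0 of the 15 and 0.0178% of all. At an unadjusted p under 0.05 there were 3 of 15 in each fit, against 5.52% and 4.93% of all probe sets. These counts describe the contrast on which the genes were chosen.

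The rest of the hyaluronan system was read from lists of synthesis, breakdown and binding genes, in which 42 of 48 listed gene symbols had a probe set. In nulls 17 had a higher mean and 25 a lower one, with a median log2 difference of -0.090 (-0.056 without null replicate 2). Limma called 0 of the 42 untrended and 0 trended, with 2 and 0 at an unadjusted p under 0.05, against 5.52% and 4.93% of all probe sets. Groups were apart with nulls higher at 3 of the 42 (Pgm3, Hyal3 and Ezr), against 9.9% of all probe sets. With nulls lower they were apart at 4 (Ncan, Hapln4, Hapln1 and Esrp2), against 10.1%.

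Precursor synthesis was measured by 9 genes, 2 higher and 7 lower in nulls by their means, with a median log2 difference of -0.15. Without heterozygote replicate 2 the median was 0.045 and 5 of 9 were higher, and it was -0.22 without null replicate 1 and -0.066 without null replicate 2. Pgm3, which acts in the making of UDP-N-acetylglucosamine, was 6.33 and 7.02 in heterozygotes and 7.30, 7.08 and 7.09 in nulls (log2 difference 0.48, SE 0.39, limma adjusted p = 0.991). Gfpt2 and Uap1, enzymes of the same route, had log2 differences of 0.69 (SE 0.50) and -0.34 (SE 0.42). Their groups overlapped.

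Breakdown genes numbered 7, with 4 higher and 3 lower and a median of 0.085. The median was 0.43 with 6 of 7 higher without heterozygote replicate 1 and -0.098 without heterozygote replicate 2, and 0.16 and 0.039 without null replicates 1 and 2. Hyal2, a hyaluronidase tethered to the cell surface, had 0.085 (SE 0.38), and Hexa and Gusb, lysosomal enzymes that take the released fragments apart, had 0.30 (SE 0.45) and -0.20 (SE 0.46). Hyal3, chosen after its values were seen, was below background in both heterozygotes (1.34 and 1.00) and at 4.34, 3.49 and 2.48 in nulls, the last of them below background. Its signal was at least 1.21-fold higher in nulls, with a limma adjusted p of 0.727 in the untrended fit.

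Receptors and binding proteins other than Cd44 numbered 9, with 3 higher and 6 lower and a median of -0.17. Without null replicate 1 the median was 0.035 and 5 of 9 were higher. Habp4, a hyaluronan- and RNA-binding protein, had a log2 difference of -0.34 (SE 0.37), Tlr2, a Toll-like receptor that hyaluronan fragments can engage, -0.47 (SE 0.77) and Habp2, a plasma serine protease that binds hyaluronan, -0.93 (SE 1.17). Groups overlapped at all 3 genes.

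Link proteins and lecticans, which tie proteoglycans to the hyaluronan strand, were lower by their means in 6 of 8 cases, with a median of -0.70, and 0 of 8 were called. Hapln1, a link protein, was 5.25 and 4.91 in heterozygotes and 4.62, 4.55 and 4.30 in nulls, above background throughout (log2 difference -0.59, SE 0.36, limma adjusted p = 0.991). Ncan, the neural lectican neurocan, was 4.52 and 4.02 in heterozygotes and 2.14, 3.07 and 3.08 in nulls, where 1 array was above background (log2 difference -1.51, SE 0.48, adjusted p = 0.802). Hapln4, a link protein of the nervous system, exceeded background on no null array, and its signal was at least 1.37-fold lower in nulls (adjusted p = 0.952). The median of this list was -0.14 with an offset of 16 and -0.22 with values raised to background, and it was -0.36 and -1.10 without heterozygote replicates 1 and 2, and -0.91 and -0.18 without null replicates 1 and 3.

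Of 6 measured Cd44 partners 3 were higher and 3 lower, with a median of 0.056. It was 0.17 without heterozygote replicate 2, 0.19 without null replicate 3, 0.035 without heterozygote replicate 1 and 0.014 without null replicate 2. The sign turned with other scalings, to -0.055 with median centring and -0.099 without normalisation. Ezr and Msn encode ezrin and moesin, which link Cd44 to actin, and had log2 differences of 0.51 (SE 0.37) and 0.73 (SE 0.53). Esrp2, a splicing factor that acts on Cd44 transcripts in epithelia, had -0.29 (SE 0.35). The limma adjusted p was 0.991 or more for each.

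**Figure D3:**
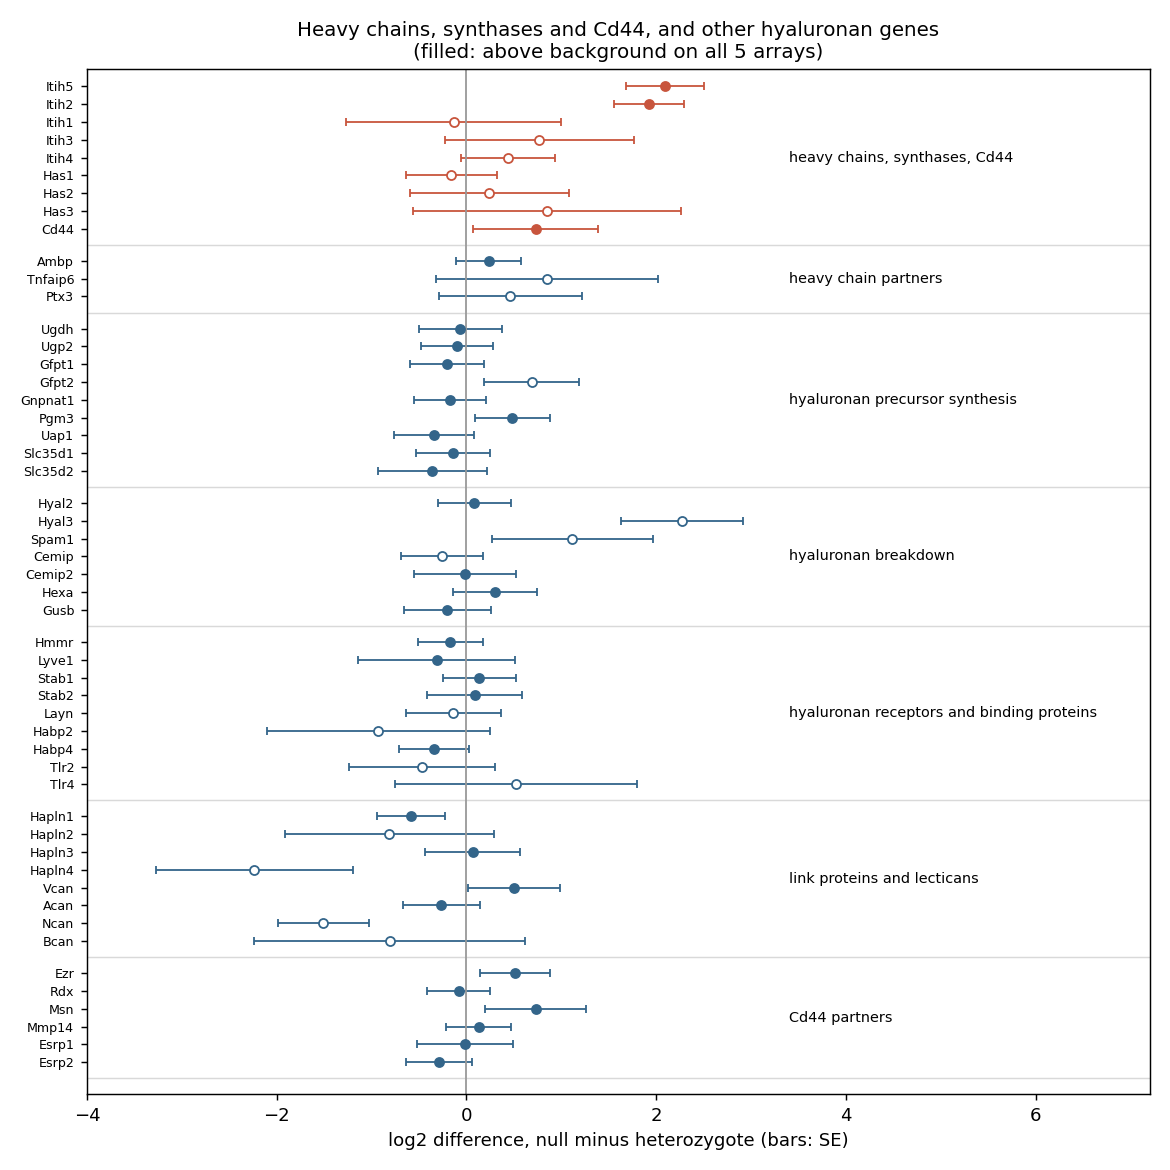
Log2 difference in mean signal, null minus heterozygote (horizontal axis, bars are SE), for the 9 genes (red) and the 42 other genes of the hyaluronan system (blue), each by its brightest probe set, with filled points above background on all 5 arrays. Among filled points Itih5 and Itih2 lie farthest from 0, at 2.09 and 1.92.

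Markers of other cell types were set beside the pair on chromosome 2. For each list the linear normalised signals of its genes, each by its brightest probe set, were summed on each array. Of 29 mesenchyme markers 23 had a higher mean in nulls, with a median log2 difference of 0.36 and summed signals of 2822 to 3851 in heterozygotes and 3668 to 4319 in nulls. The brightest, Vim, Meis2 and Col3a1, had log2 differences of 0.025, 0.20 and 0.56, and Twist1 was below background on every array. Without heterozygote replicate 2 the mesenchyme median was 0.025, with log2 differences of 2.39 for Itih5 and 1.72 for Itih2. Without heterozygote replicate 1 it was 0.55, with 1.79 for Itih5 and 2.12 for Itih2.

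Of 12 measured hepatoblast markers 6 were higher and 6 lower, with a median of -0.017. This median had the other sign in 8 of 12 alternatives: it was 0.32 with 8 of 12 higher without heterozygote replicate 2, between 0.15 and 0.17 without each null in turn, and 0.28 with 20 of 27 higher over all probe sets. Without heterozygote replicate 1 it was -0.077. Their summed signal was 4527 to 6134 in heterozygotes and 6502 to 6680 in nulls, so the groups did not overlap. Most of it came from Ttr, at 11.95 and 12.33 in heterozygotes and 12.37, 12.27 and 12.39 in nulls (log2 difference 0.20). Groups overlapped at Ttr, and which cells of the bud gave its signal was not tested. Afp was dimmer, at 7.59 and 9.08 in heterozygotes and 9.76, 10.09 and 9.76 in nulls (log2 difference 1.54). Serpina1b had -0.37, and Fga was below background on every array. Neural crest and glia markers were higher in 5 of 8 cases, with a median of 0.52 (0.34 without heterozygote replicate 2 and 0.80 without heterozygote replicate 1) and summed signals of 261 to 291 in heterozygotes and 386 to 408 in nulls. Groups were apart with nulls higher at 2 of the 8 and with nulls lower at 1, against 9.9% and 10.1% of all probe sets. No marker of this list was below background on every array, and 5 of the 8 were above it on all arrays.

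Mesothelium markers were higher in 2 of 8 cases, with summed signals of 61.4 to 125 in heterozygotes and 83.8 to 105 in nulls. Msln was below background on every array, and 1 of the 8 was above it on all arrays. The median of the list was -0.27, and it was 0.14 and -0.49 without heterozygote replicates 1 and 2, and -0.14 without null replicate 1. It was 0.33 without dim probe sets and -0.047 with values raised to background. Endothelium markers were higher in 7 of 11 cases, with sums of 320 to 501 in heterozygotes and 301 to 601 in nulls. Their median was 0.12, and it was 0.25 and -0.27 without heterozygote replicates 1 and 2, and 0.22 and -0.024 without null replicates 1 and 3. Leukocyte markers were higher in 2 of 8, with sums of 97.0 to 249 in heterozygotes and 107 to 159 in nulls. Only 2 of the 8 were above background on all arrays. The leukocyte median was -0.30, and -0.95 without heterozygote replicate 1. It was -0.12 with an offset of 16, -0.035 with values raised to background and -0.035 without dim probe sets. Erythroid markers were lower in 10 of 11, with sums of 9578 to 12041 in heterozygotes and 7984 to 8894 in nulls, and Hba-a1 was below background on every array. Their median was -0.81, and -0.51 without heterozygote replicate 2. It was -0.28 with an offset of 16 and -0.57 with values raised to background. The part of these cell types in the Itih5 and Itih2 differences was not tested.

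Genes whose signal followed that of Itih5 were ranked by Pearson correlation over the 5 arrays with 1429159_at, among 5184 named probe sets above background on all arrays and with an SD of at least 0.5. The nearest were Slc39a6, a zinc transporter (r = 0.999), Slc2a3, the glucose transporter GLUT3 (0.998), Vnn1, the pantetheinase vanin 1 (0.997), Dleu2, a long noncoding RNA (0.997), and Sox4, a transcription factor (0.996). Etohd2, Pnrc2, AW551984, Zscan21 and Ccdc180 followed at 0.993 or 0.994. With 5 arrays high values were not confined to these: 110 of the probe sets (2.12%) had r above 0.9 and 101 (1.95%) below -0.9. Itih2 stood at rank 55.

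Among the nearest probe sets, Slc39a6 was 4.41 and 4.63 in heterozygotes and 5.62, 5.46 and 5.31 in nulls, and Vnn1 was 4.01 and 4.49 against 6.30, 6.16 and 5.73. In each, heterozygote replicate 1 was lowest and null replicate 1 highest. The brightest Itih5 probe set has the same order, and both genes were picked for following it. The shared order therefore comes from the ranking and is no separate observation. Nulls were also higher at that Itih5 probe set, so the ranking favours probe sets with nulls higher. At the dimmer Itih5 probe sets the heterozygotes stood in the opposite order. The log2 differences of Slc39a6 and Vnn1 were 0.93 and 1.81, below the 2.09 of Itih5.

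Across the processing alternatives, the log2 difference of Itih5 at 1429159_at lay between 1.79 and 2.39 and that of Itih2 between 1.54 and 2.12. The other Itih5 probe sets ranged from 0.89 to 1.89 at 1441946_at and from 0.58 to 1.57 at 1436755_at, both lowest with the offset of 16. Direction was kept under every alternative at 5 of the 15 probe sets, the 3 of Itih5, that of Itih2 and 1423760_at of Cd44. Groups that do not overlap keep their direction when an array is left out, so for the first 4 those alternatives add nothing on direction. The other 10 changed sign under at least 1 alternative, among them every probe set of Has1, Has2, Has3, Itih1, Itih3 and Itih4. At Itih4 and at 1443265_at of Cd44 the sign changed only with values raised to background, to -0.060. All arrays of these are below background, so that value is the difference between background levels and says nothing about the genes.

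**Figure D4:**
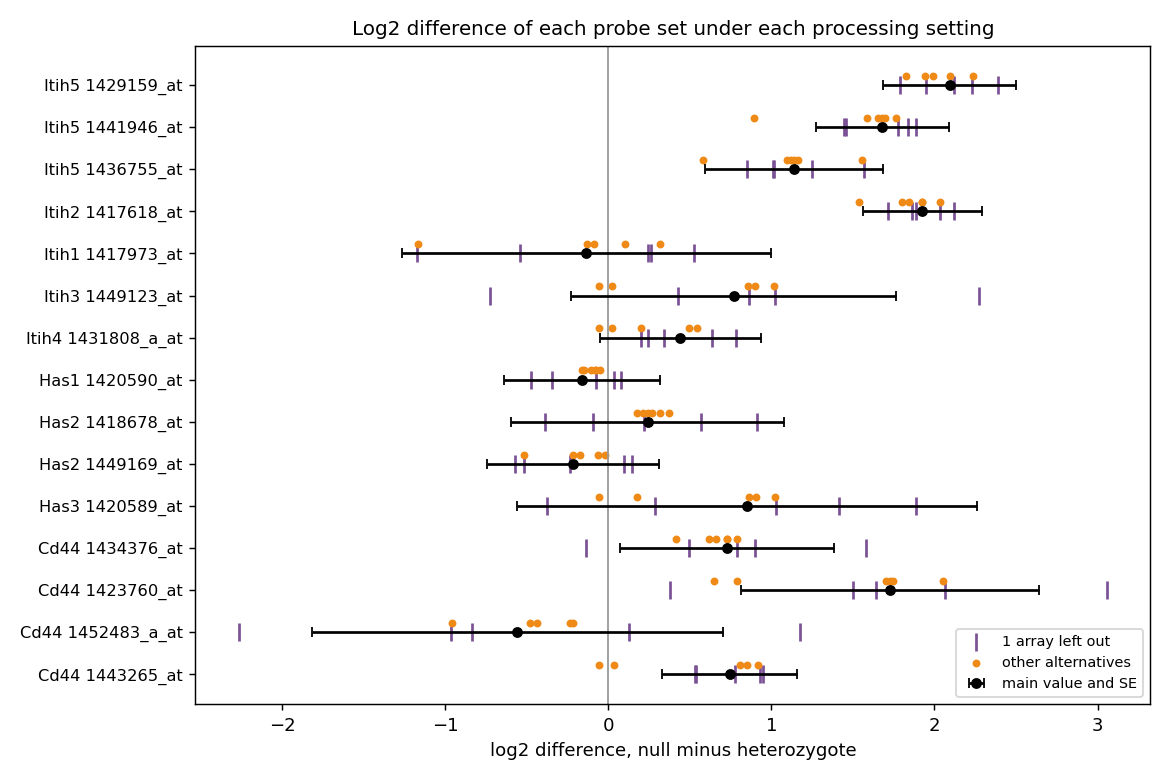
Log2 difference, null minus heterozygote (horizontal axis), of each probe set as reported (black, with SE), with 1 array left out (purple ticks) and under other alternatives (orange points). All marks for Itih5 and Itih2 lie above 0, from 0.58 to 2.39, whereas those of the other heavy chains and of the synthases fall on both sides of 0. For Itih4 the only mark below 0 is that with values raised to background, which is the difference between background levels.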

How the data were processed

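Expression was measured in 2 heterozygote and 3 null pools. Values in the authors' deposited table, 45101 probe sets per array, are intensities on a linear scale. The submitters' processing notes list GCOS and RMA, without versions or roles. Each intensity was converted to log2 with nothing added, arrays were quantile normalised, and the 64 controls were not tested. Annotation gave 34945 probe sets 1 symbol, 932 several and 9160 none. Genotypes were compared with limma 3.58.1 in R 4.3.3 (lmFit and eBayes with an untrended prior, two-sided, Benjamini-Hochberg over 45037 probe sets). Alternatives were a trended and robust prior, an offset of 16, other scalings, a floor at background, a filter on dim probe sets, each array left out and a replicate block. The untrended fit was run on simulated data with large changes planted in brighter probe sets. The simulated noise was equal for all probe sets and smaller than is typical of these arrays. That run checks the code, and does not show how many changes the fit can find in these arrays. List genes were read at their brightest probe set. A gene below background on every array of 1 genotype has a bound: the other genotype's mean over the higher of that array's background and the measured signal, averaged.

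Every probe set of the 9 genes is described. From each pathway list the text names called genes, or otherwise up to 3 with the lowest p among those above background on 1 whole genotype, and from the mesenchyme, hepatoblast and pancreatic epithelium markers the 3 brightest. Tnfaip6, Ptx3, Hyal3, Mnx1, Nkx6-1, Prox1 and Pdx1 were named outside this rule, with values known. The 9 genes and all lists were chosen with earlier results of these data known. Precision is limited by there being 5 arrays.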

Additional observations from a re-analysis of the deposited data

How the results depend on the processing

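With 0 probe sets called in the untrended limma fit, the trended fit called 8, and every other alternative called 0. No gene of the hyaluronan system was called under any of the alternatives. With an array left out, the log2 difference of Itih5 ran from 1.79 (without heterozygote replicate 1) to 2.39 (without heterozygote replicate 2), where the remaining heterozygote is assumed to vary like the other group. It was 1.83 with an offset of 16, 1.99 with median centring and 1.95 without normalisation. With replicate number as a block it was 2.23, with 0 calls. Same-numbered arrays did not deviate together from their group means (r = -0.017 for replicate 1 and 0.0080 for replicate 2), so the numbers were not taken as pairs. Without normalisation the median of all probe sets was -0.12. Signal near background limits Has1, Has2, Has3, Itih1, Itih3 and Itih4.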
